A study of Mus musculus with 14 samples.

Results

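The comparison described here set left ventricles of male C57Bl/6N mice against left ventricles of male C57Bl/6J mice after both substrains had received angiotensin II for 48 h. Its members are 8 Illumina expression arrays of the 14 in the series, chosen by the source label: 4 arrays of C57Bl/6N and 4 of C57Bl/6J under angiotensin II. The remaining 6 arrays, 3 sham-operated ventricles of each substrain, served as the background against which the same substrain difference was measured without the peptide. No allele or transgene is named for any group, and sham surgery is the only control. Angiotensin II came from osmotic mini-pumps under the skin; a dose of 500 ng/kg is stated per minute in one place and per hour in another, and which one applied could not be settled. Neither ages, batches and chips nor a statement that each array held a different mouse could be found in the labels, so every p-value measures the spread between these arrays, which may be technical. The treated arrays are called J1 to J4 and N1 to N4 in the order of the sample list; the numbers pair nothing.

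Angiotensin II is the hormone through which the renin-angiotensin system acts. Through its type 1 receptor it constricts arteries and raises blood pressure, and it acts on cardiomyocytes, fibroblasts and immune cells; in the ventricle a sustained infusion is known for hypertrophy, monocyte and macrophage entry, and deposition of collagen-rich matrix. C57Bl/6J and C57Bl/6N were separated as breeding colonies and have since accumulated sequence differences, of which the loss of exons of Nnt (a mitochondrial proton-pumping transhydrogenase that supplies NADPH) in C57Bl/6J is the best known.

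Of 18138 gene rows, 9408 (51.9%) were detected on at least 3 arrays and were tested. Median raw signals of the 8 treated arrays ran from 80.8 to 112 before normalisation. Normalised values correlated at 0.976 to 0.995 within the treated C57Bl/6J group, at 0.986 to 0.995 within the treated C57Bl/6N group and at 0.962 to 0.993 between them. A pair of arrays stood apart from its own group. J1 lay more than 1 log2 unit from the median of the other 3 arrays in 312 genes, against 9 to 17 genes for J2 to J4, and N4 did so in 91 genes, against 13 to 19 for N1 to N3. All 16 cardiomyocyte markers on the array, including Myh6 and Actn2, were above background on all 8 treated arrays. Atrial markers were also present, with 7 of 13 above background on every treated array, among them Sln. Nnt was below background on all 8 treated arrays and detected on none of the 14, so this row could not check the substrain labels.

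Under angiotensin II, 870 genes (9.25% of those tested) differed between the substrains at an adjusted p under 0.05 in limma's moderated test, with Benjamini-Hochberg adjustment over all 9408 rows. These were 514 genes higher in C57Bl/6N (5.46%) and 356 lower (3.78%). At an unadjusted p under 0.05 there were 2436. Most of the called differences were small: 80 of the higher and 18 of the lower genes reached 2-fold, and the median difference was 0.63 log2 units among the higher genes and -0.51 among the lower ones, beside -0.015 over all tested genes. The 4 values of one substrain lay wholly above or below the 4 of the other in 1416 tested genes (15.1%) and in 687 of the called ones (79.0%). Another scaling moved the split: with median scaling in place of quantile normalisation, 78.1% of 767 calls were higher in C57Bl/6N, against 59.1% of 870.

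**Figure D1:**
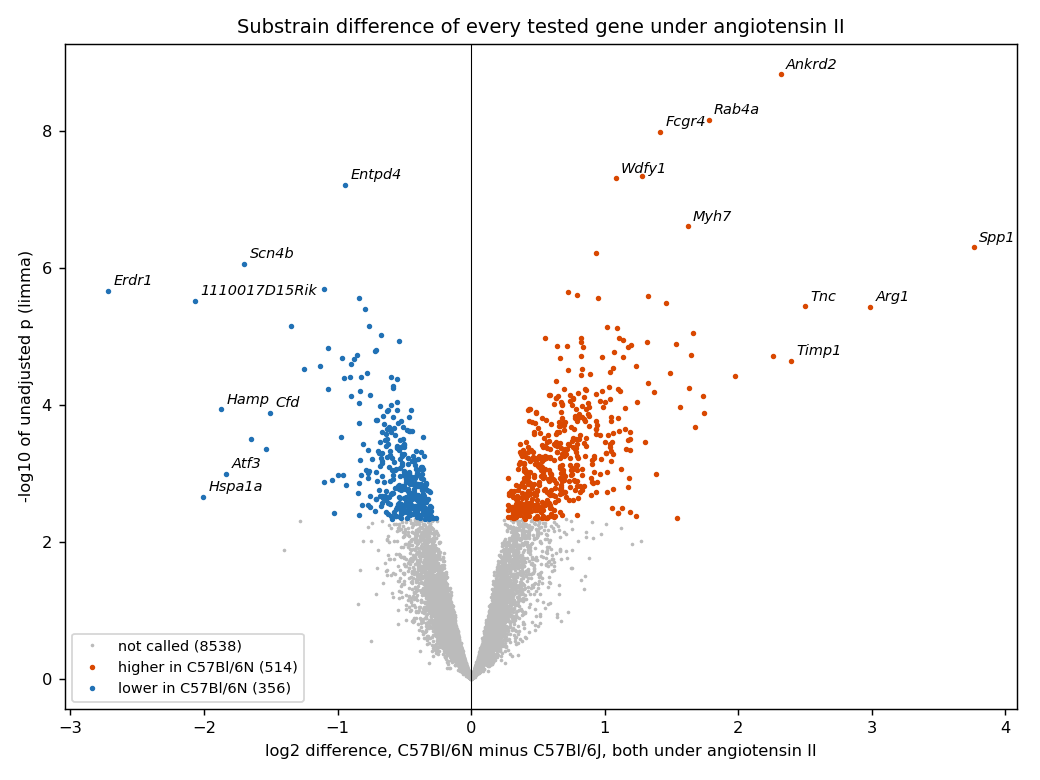
Substrain difference of each of the 9408 tested genes under angiotensin II. The horizontal axis gives log2 signal in C57Bl/6N minus C57Bl/6J and the vertical axis the negative log10 of limma's unadjusted p; orange points are the 514 genes called higher in C57Bl/6N, blue points the 356 called lower, and the genes with the largest differences, such as Spp1 and Erdr1, lie at the left and right edges.

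The number of calls depended on single arrays. Without N1 it fell to 206 and without N3 to 219, while leaving out N4 raised it to 1476. J4 and N2 also moved it by more than 1.5 times, to 425 and 480. Without J1 it was 736, and without both J1 and N4 it was 1672, an alternative chosen after the data had been seen. None of the 870 genes changed sign in any of these fits, and 191 of them (22.0%) were called without each of the 14 arrays in turn. Why N4 differed from the other C57Bl/6N arrays was not tested. Sizes of dim genes depended on the background correction: with background inferred from all rows, 60 of 129 called genes named below shrank by more than 1.5 times on the log2 scale, and none of them changed sign. Some shrank far more, such as Serpinb1a (1.49 to 0.23), Ccn4 (1.24 to 0.26), Bcat1 (1.66 to 0.42) and Sprr1a (1.63 to 0.39). Tyms (0.80 to 0.11), Ms4a7 (1.11 to 0.23) and Hamp (-1.87 to -0.41) did so too. Counts of gene lists are to be read against the 5.46% of tested genes called higher and the 3.78% called lower. In 12 of 44 lists the share called was at or below 9.25%, among them heat shock proteins (8.33%), clock genes (8.33%), proteasome subunits (4%), sarcoplasmic reticulum calcium handling (5%), cardiomyocyte markers (6.25%) and smooth muscle markers (7.14%).

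**Figure D2:**
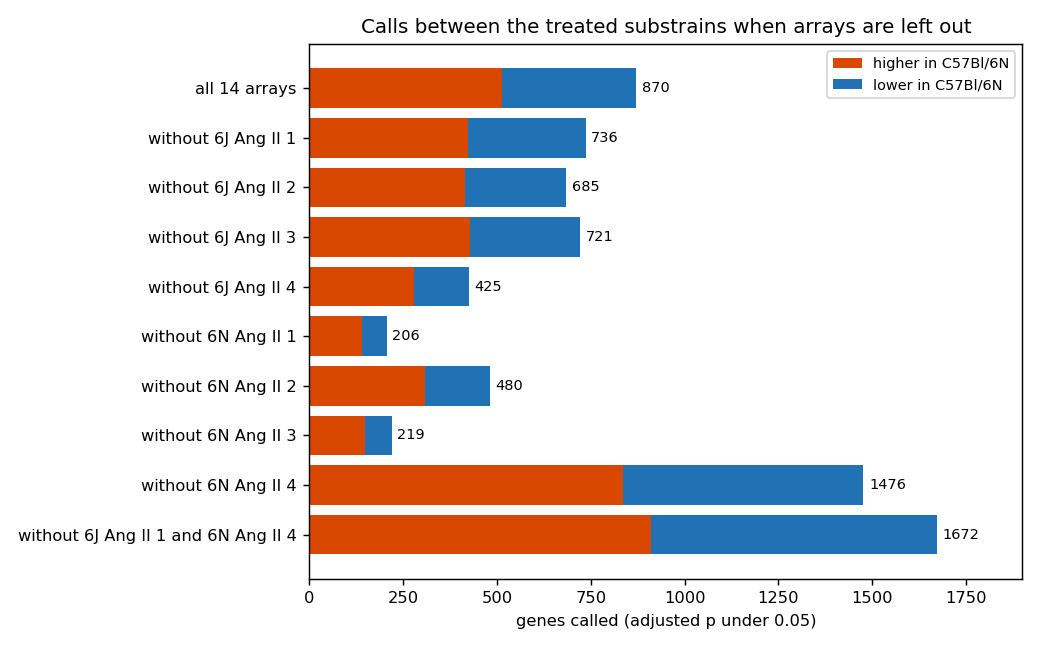
Number of genes called between the treated substrains when treated arrays are left out, with the fit of all 14 arrays on top. Each bar adds the genes higher in C57Bl/6N (orange) and lower (blue); 6J and 6N stand for C57Bl/6J and C57Bl/6N and Ang II for angiotensin II. Bars shorten to 206 and 219 without 6N Ang II 1 or 3 and lengthen to 1476 without 6N Ang II 4.

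Several genes of the extracellular matrix and its control were higher in C57Bl/6N. Spp1 encodes osteopontin, a matrix-associated cytokine of macrophages and fibroblasts. Its log2 signal was 6.34, 5.90, 5.99 and 5.92 on J1 to J4 and 10.63, 9.50, 11.02 and 8.04 on N1 to N4. The groups did not overlap, N4 was the lowest of its group, and both sham means, 4.80 in C57Bl/6J and 4.92 in C57Bl/6N, lay below every treated array. Spp1 was 13.6-fold higher in treated C57Bl/6N (log2 difference 3.77 ± 0.45 SE, adjusted p = 0.000587). Tnc, the matricellular glycoprotein tenascin C of injured tissue, read 5.89, 5.96, 7.26 and 6.74 in C57Bl/6J and 9.23, 9.30, 9.63 and 7.71 in C57Bl/6N, with sham means of 4.84 and 4.90. That is a 5.67-fold difference (2.50 ± 0.35, adjusted p = 0.00166), again without overlap and again with N4 lowest in its group. Timp1, the secreted inhibitor of matrix metalloproteinases, read 10.13, 9.17, 9.98 and 9.73 against 12.75, 12.01, 12.91 and 10.92. Its sham means were 7.06 in C57Bl/6J and 7.98 in C57Bl/6N. The treated difference of Timp1 was 5.26-fold (2.40 ± 0.39, adjusted p = 0.00388). Lox, the enzyme that crosslinks collagen and elastin, read 8.16, 7.91, 8.77 and 7.88 against 9.95, 10.13, 10.37 and 8.84, from sham means of 6.50 and 7.04, a 3.13-fold difference (1.64 ± 0.27, adjusted p = 0.00369). These 4 calls held without each of the 14 arrays. With background inferred from all rows, the log2 differences of Spp1 and Tnc shrank to 2.22 and 1.25.

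Fibrillar collagens differed less firmly. Col1a1, the alpha 1 chain of type I collagen, read 8.10, 10.68, 11.08 and 10.48 on J1 to J4 and 11.78, 11.97, 11.65 and 11.11 on N1 to N4, with sham means of 10.08 and 9.76. J1 was far below the other C57Bl/6J arrays, below both sham means too. The Col1a1 difference was 1.55 ± 0.46 (adjusted p = 0.0491) with J1 and 0.88 without it (adjusted p = 0.0252); the call was lost without J4, any of N1 to N3 or any single sham array, with an adjusted p of up to 0.134. Col3a1, the type III chain, read 7.94, 7.91, 7.90 and 7.35 against 8.78, 8.83, 9.13 and 7.99, from sham means of 6.91 and 7.24. Its difference was 0.91 ± 0.21 (adjusted p = 0.0193), a call lost without N1 (adjusted p = 0.0702), N3 (0.0756), J4 (0.0585) or N2 (0.0524). Postn, the matricellular protein of activated fibroblasts, was below background on all treated arrays and was not tested.

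Of 36 tested genes in the list of fibrillar collagen and extracellular matrix, 15 were called higher and none lower, with a median log2 difference of 0.41. Among them Ccn4, a matricellular protein induced by Wnt signalling, was 1.24 ± 0.23 higher (adjusted p = 0.00799). Ccn2, a related matricellular protein downstream of TGF-beta, read 13.69, 12.98, 13.44 and 13.25 in C57Bl/6J and 13.59, 13.49, 13.80 and 13.40 in C57Bl/6N. The Ccn2 groups overlapped, at a difference of 0.23 ± 0.14 (adjusted p = 0.307), although both lay above sham means of 11.52 and 11.59. The list of matrix proteases and inhibitors had 6 of 26 called higher and none lower. Besides Timp1 these included Serpinb1a, an inhibitor of neutrophil proteases (1.49 ± 0.25, adjusted p = 0.00497), Ctsk, the collagen-degrading cathepsin K (0.44 ± 0.09, adjusted p = 0.0086), and Adam8, a membrane metalloproteinase of leukocytes. Adam8 was below background on all 4 C57Bl/6J arrays and above it on 3 of 4 C57Bl/6N arrays, at least 1.26-fold higher (adjusted p = 0.0146, lost without N1 at 0.0641 and N3 at 0.0565). With background inferred from all rows, the log2 difference of Adam8 was 0.07 and it was not called (adjusted p = 0.054). Without N3 the matrix list had 5 higher genes, and 7 and 6 without N1 and N2, and 7 without J4. The protease list had 3 without N3, 4 without N1 and 10 without N4.

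Arg1 and other genes of macrophages formed a second group. Arg1, the arginase of alternatively activated macrophages, was at background in C57Bl/6J, with readings of 4.60, 4.62, 4.66 and 4.59 on J1 to J4. On N1 to N4 it read 8.56, 7.25, 8.68 and 5.92, all above background, and both sham groups lay at background with means of 4.69 and 4.63. Arg1 was therefore at least 4.19-fold higher in treated C57Bl/6N (adjusted p = 0.00166). Its row entered the test through the treated C57Bl/6N arrays, where it was high, and the groups at background share in the spread behind this p. Lgals3, the lectin galectin-3 of macrophages and fibrotic tissue, read 8.86, 8.37, 8.56 and 8.13 against 11.19, 10.30, 11.12 and 9.22, from sham means of 7.62 and 7.96. The difference of Lgals3 was 3.94-fold (1.98 ± 0.34, adjusted p = 0.0052). Hmox1, the heme-degrading oxygenase induced by oxidative stress, read 7.03, 7.30, 6.97 and 6.94 against 9.59, 8.38, 9.57 and 7.67, from sham means of 6.53 and 6.48, a difference of 1.74 ± 0.32 (adjusted p = 0.00732). Chil3, a chitinase-like protein of alternatively activated macrophages, was below background on every C57Bl/6J array and above it on every C57Bl/6N array, at least 2.11-fold higher (adjusted p = 0.0111). Clec4d, a C-type lectin receptor of myeloid cells, was 1.74 ± 0.34 higher (adjusted p = 0.00909). In each of these 5 genes N4 was the lowest of the C57Bl/6N arrays. The calls of Arg1, Hmox1, Chil3 and Clec4d were lost with background inferred from all rows, at adjusted p-values of 0.0509, 0.057, 0.0751 and 0.0572. The log2 differences of Arg1 and Chil3 there were 0.63 and 0.23, so their bounds hold for the correction used.

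**Figure D3:**
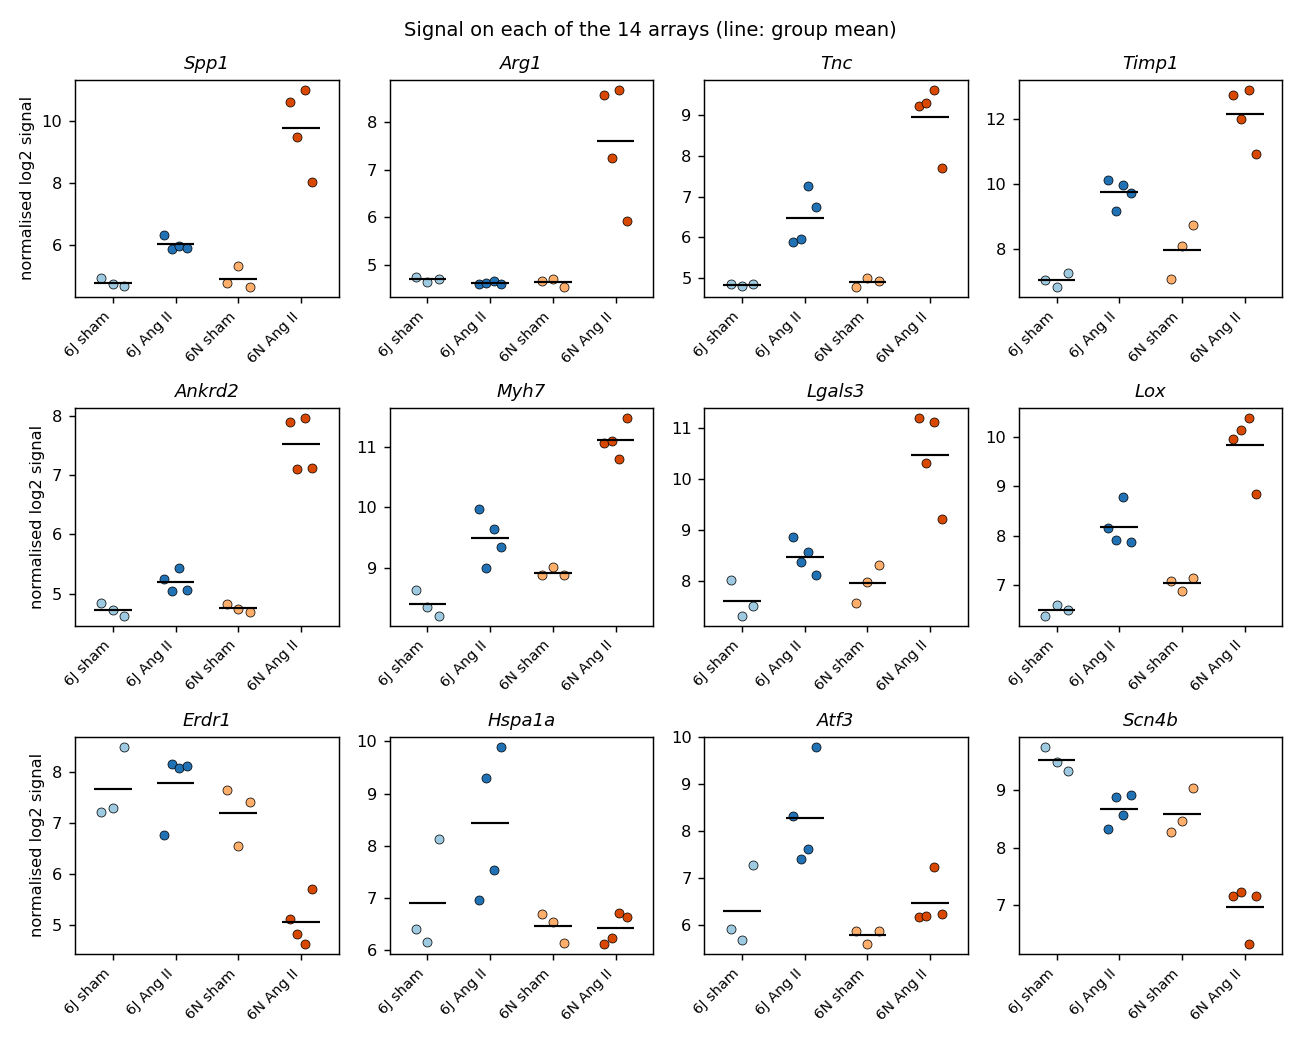
Normalised log2 signal (vertical axes) on each of the 14 arrays for 12 genes, grouped as C57Bl/6J (6J) and C57Bl/6N (6N), sham and angiotensin II (Ang II); each point is an array and each line a group mean. In Spp1, Arg1, Tnc, Timp1, Lgals3 and Lox the lowest treated C57Bl/6N point is N4, still above all 4 treated C57Bl/6J points, whereas Erdr1, Hspa1a, Atf3 and Scn4b are lower in treated C57Bl/6N.

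Macrophage and monocyte markers were called higher in 12 of 23 tested genes and lower in none, with a median log2 difference of 0.65. Ms4a7, a membrane protein of macrophages, was higher by 1.11 ± 0.17 (adjusted p = 0.00326), and Cd52, a glycoprotein of leukocytes, by 1.56 ± 0.30 (adjusted p = 0.00838). Ms4a6d was higher by 1.11 ± 0.23 (adjusted p = 0.0119). The summed signal of the 25 markers on the array ran from 14687 to 16384 on J1 to J4, and was 35877, 25909, 34204 and 17128 on N1 to N4. In sham ventricles it ran from 13693 to 15838 in C57Bl/6J and from 11926 to 15954 in C57Bl/6N. N4 was thus just above the C57Bl/6J range and N1 to N3 well above it. Bright rows weigh most in this sum, such as Lyz2 (log2 signal 11.68 to 13.55 over the 8 treated arrays) and Laptm5 (11.67 to 12.63). Itgam and Ccr2 of this list were below background on all 8 treated arrays. In such bulk tissue, more cells of a type and more RNA per cell cannot be told apart. The marker count was 4 without N1 or N3, 7 without J2, J4 or N2, and 20 without N4.

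Fc receptor and antigen presentation genes were higher too. The list of Fc receptors, complement and phagocytosis had 11 of 20 tested genes higher and none lower (median 0.64). Fcgr4, an activating receptor for IgG, had the smallest p of the list. It read 6.16, 6.36, 6.36 and 6.45 in C57Bl/6J and 7.99, 7.71, 7.88 and 7.44 in C57Bl/6N, a tight and non-overlapping difference of 1.42 ± 0.12 (adjusted p = 3.21e-05). Clec4n, the fungal pattern receptor dectin-2, was higher by 1.24 ± 0.21 (adjusted p = 0.00446), and Trem2, a lipid-sensing receptor of macrophages, by 1.32 ± 0.23 (adjusted p = 0.00596). With background inferred from all rows, Fcgr4, Clec4n and Trem2 differed by 0.35, 0.24 and 0.29. MHC class II antigen presentation had 7 of 9 tested genes higher and none lower (median 0.82). These included H2-Ab1 (1.04 ± 0.19, adjusted p = 0.0075) and the invariant chain Cd74 (1.10 ± 0.22, adjusted p = 0.00976). Ifi30, the lysosomal thiol reductase of antigen processing, was higher by 1.03 ± 0.18 (adjusted p = 0.00671). Ciita, the master transactivator of the class II genes, was below background in C57Bl/6J and above it on 3 C57Bl/6N arrays, at least 1.07-fold higher (adjusted p = 0.01). With background inferred from all rows, the log2 difference of Ciita was 0.08 (adjusted p = 0.0376). Without N1 or N3 the Fc list had 4 higher genes, without N2 or J4 6, without J2 7; the class II list had 4 without N1.

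Other inflammatory genes did not move as one. Among 14 tested genes of alternative macrophage activation, Arg1, Chil3 and Trem2 were higher and Retnla, Folr2 and Lyve1 lower. Retnla encodes a resistin-like cytokine of the same activation state. It read 7.13, 7.01, 6.97 and 6.88 against 5.47, 5.82, 5.52 and 6.20, a difference of -1.25 ± 0.21 (adjusted p = 0.00468), and its sham difference was nearly as large, -1.19 (adjusted p = 0.157). With background inferred from all rows Retnla differed by -0.18 and was not called (adjusted p = 0.0561). Folr2 (-0.67) and Lyve1 (-0.72), both markers of resident macrophages, lost their calls without N1, at adjusted p-values of 0.0512 and 0.156, and Lyve1 also without J1, J2, J4, N2, N3 and 4 of the sham arrays. Of 29 chemokines and inflammatory mediators, Cxcl16 (0.66), Saa3 (0.76), Osmr (0.59), Ccl9 (0.82) and Lcn2 (1.24) were higher and Ccl19 (-0.58) and Cxcl9 (-0.53) lower. Lcn2 (adjusted p = 0.048) lost its call for 12 of the 14 arrays dropped singly. Saa3 differed by 0.09 with background inferred from all rows. Without N1, Cxcl16 was the single higher call left of that list. Ccl2, the chief monocyte-attracting chemokine, read 8.05, 6.65, 6.22 and 6.79 against 7.40, 6.55, 7.79 and 5.81, from sham means of 5.44 and 5.86. The difference of Ccl2 was -0.04 ± 0.44 (adjusted p = 0.966). Neutrophil markers gave no call among 5 tested genes, 6 others being below background. Their example S100a8 read 9.40, 8.45, 8.28 and 10.20 against 10.72, 8.36, 10.04 and 9.91, a difference of 0.67 ± 0.44 (adjusted p = 0.353). Interferon response genes were called in 3 of 24, with Irf8 higher (0.53) and Rsad2 (-0.50) and Irf1 (-0.39) lower, all lost without N1 at adjusted p-values of 0.0786, 0.0882 and 0.0937. Irf1 lost its call for 8 of the 14 arrays dropped singly.

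Genes of cell division were the list with the largest share of higher calls among those with over 10 tested members, 20 of 29 with none lower (median 0.79). Aurka, a mitotic spindle kinase, read 5.52, 5.46, 5.64 and 5.42 in C57Bl/6J and 6.98, 6.65, 7.16 and 5.97 in C57Bl/6N, a difference of 1.18 ± 0.19 (adjusted p = 0.00327). Aurka was above background on 1 of the C57Bl/6J arrays, and with background inferred from all rows it differed by 0.15. Tyms, which makes thymidylate for DNA synthesis, was higher by 0.80 ± 0.16 (adjusted p = 0.00976). Mad2l1, of the spindle checkpoint, and Mcm4, of the replicative helicase, were both higher by 0.70, with SEs of 0.14 and 0.15 and adjusted p-values of 0.0109 and 0.0118. Top2a, the topoisomerase of dividing cells, read 5.65, 7.40, 7.07 and 6.83 against 8.24, 7.82, 8.33 and 7.08, from sham means of 5.85 and 5.25. J1 was lowest, N4 lay within the C57Bl/6J range, and the difference of 1.13 ± 0.32 (adjusted p = 0.0411) was lost without J1 (0.0717), J4, N1 (0.136), N2, N3 (0.137) and 4 of the sham arrays. The list's count fell to 4 without N1, 6 without N3, 11 without J4, 12 without N2 and 13 without J1. Per array, the list's median relative to the 8 treated arrays was -0.68, -0.14, -0.30 and -0.38 on J1 to J4 and 0.63, 0.42, 0.79 and -0.21 on N1 to N4, so that N4 lay among the C57Bl/6J arrays. Mki67 was not analysed here.

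Of 41 tested genes of the actin and tubulin cytoskeleton, 17 were higher and none lower (median 0.42). Tuba1b, an alpha-tubulin, was higher by 0.82 ± 0.13 (adjusted p = 0.00327) and Tubb2b, a beta-tubulin, by 0.98 ± 0.16 (adjusted p = 0.00369). Actn1, the actin crosslinker of non-muscle cells, was higher by 0.85 ± 0.15 (adjusted p = 0.00675), and Anxa2, a calcium-dependent membrane and actin binder, by 0.77 ± 0.14 (adjusted p = 0.0075). On N4 these genes (Tuba1b, Tubb2b, Actn1 and Anxa2) read 14.73, 8.59, 9.73 and 12.51, which were each the lowest in C57Bl/6N and above every C57Bl/6J array. Tubulin probes of near-identical genes may share signal, which these files could not resolve. The cytoskeletal count was 6 without N3, 7 without N1.

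Protein synthesis genes differed by smaller amounts. Cytosolic ribosomal proteins had 4 of 30 genes called higher, but 28 of 30 differences were positive (median 0.30). Rpl3 was higher by 0.66 ± 0.11 (adjusted p = 0.00369), and Rps4x (0.37), Rps6 (0.42) and Rps12 (0.50) lost their calls without N1, at adjusted p-values of 0.0732, 0.0777 and 0.136, and without N3, at 0.06, 0.0702 and 0.145. Without N4 the ribosomal count was 13. With median scaling Rps4x and Rps12 were not called (adjusted p = 0.0951 and 0.17). Among 29 translation factors and ribosome biogenesis genes, the elongation factor Eef1a1 was higher by 0.64 ± 0.10 (adjusted p = 0.00327), as were Eif6 (0.48), Npm1 (0.42) and Eef1g (0.35), while the cap-binding factor Eif4e was lower (-0.64). Without N1, Eef1a1 was the remaining one of these calls. Proteasome subunits had 1 of 25 called, Psma5 (0.30, lost without N1 at 0.113). In the list of endoplasmic reticulum stress and Atf4 targets, 2 of 19 were higher. The chaperones Pdia4 (0.59 ± 0.11, adjusted p = 0.00726) and Hsp90b1 (0.48 ± 0.11, adjusted p = 0.0191, lost without N1 at 0.0649 and N3 at 0.0716) had sham differences of 0.63 and 0.65, as large as under the peptide.

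**Figure D4:**
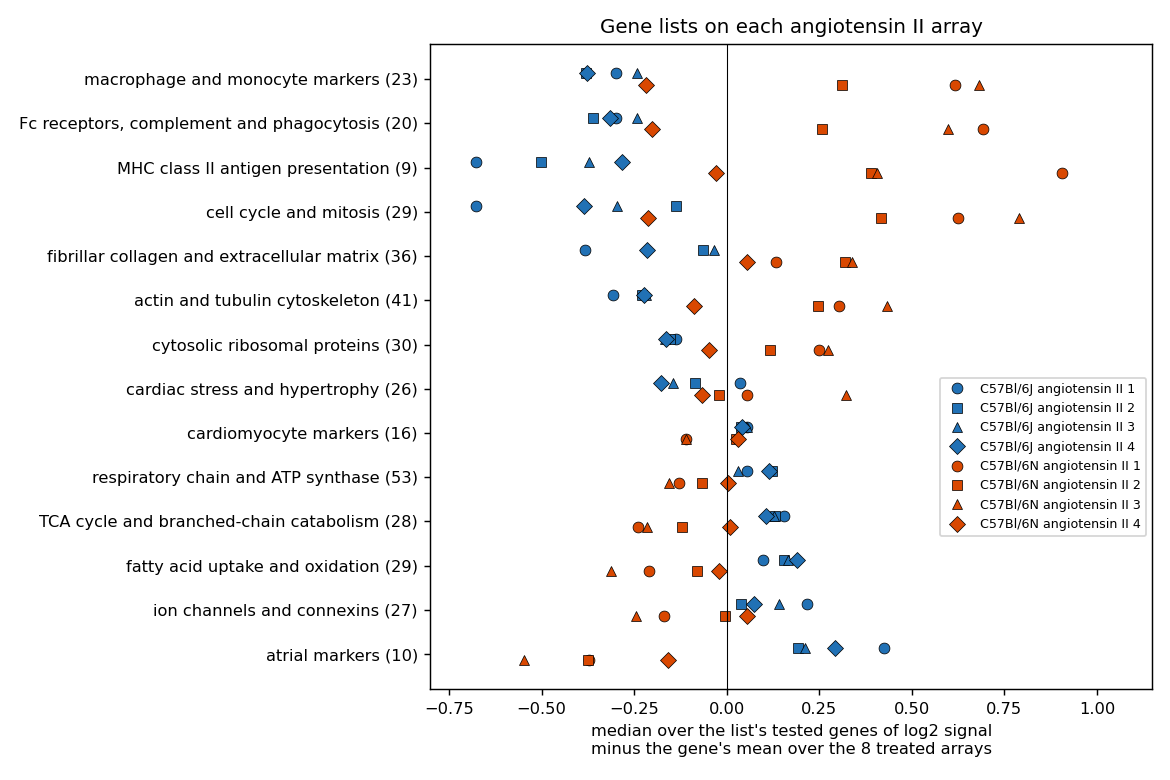
Median, over the tested genes of a list (number in parentheses), of log2 signal minus the gene's mean over the 8 treated arrays (horizontal axis), for 14 lists on each treated array. Blue marks are C57Bl/6J and orange marks C57Bl/6N. The orange diamond, array N4, lies near the blue marks in most lists, at -0.22 for macrophage markers and -0.21 for cell cycle genes. N1 to N3 lie apart for macrophage markers and cell cycle genes, but not in every list. For cardiac stress, N2 (-0.02) is among the blue marks, and for atrial markers N4 (-0.16) is nearer to the orange ones.

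Cardiac stress genes split. Ankrd2 is a stretch-induced ankyrin repeat protein of the sarcomeric I-band. It read 5.25, 5.05, 5.43 and 5.07 on J1 to J4, below background on each, and 7.89, 7.10, 7.96 and 7.12 on N1 to N4, above background on each. Sham means were 4.74 in C57Bl/6J and 4.76 in C57Bl/6N. With treated C57Bl/6J and both sham groups at background, this row entered the test through the treated C57Bl/6N arrays, where it was high. The spread behind its p also includes those groups at background. Ankrd2 was at least 3.95-fold higher in treated C57Bl/6N and had the smallest p of all tested genes (adjusted p = 1.4e-05). That bound holds for the background correction used: the log2 difference was 1.49 with no correction (adjusted p = 5.38e-05) and 0.39 with background inferred from all rows (adjusted p = 0.0136). Its close relative Ankrd1, a mechanosensitive cofactor of the cardiomyocyte nucleus, was among the brightest rows and read 14.54, 14.23, 14.32 and 14.15 against 14.44, 14.30, 14.55 and 14.59. Ankrd1 groups overlapped at a difference of 0.16 ± 0.14 (adjusted p = 0.497), from sham means of 13.45 and 13.68. The promoter of Ankrd2 is shown because it was the one gene called for a change of the substrain difference with treatment (GRCm38.p6, chr19:42035777-42036076, plus strand, from 250 bases before to 50 bases after the RefSeq start). Capitals mark its TATA box, TATAAA, whose first base lies 29 bases before the start; 13.6% of 32851 RefSeq promoters of this length hold these letters on either strand.
Ankrd2: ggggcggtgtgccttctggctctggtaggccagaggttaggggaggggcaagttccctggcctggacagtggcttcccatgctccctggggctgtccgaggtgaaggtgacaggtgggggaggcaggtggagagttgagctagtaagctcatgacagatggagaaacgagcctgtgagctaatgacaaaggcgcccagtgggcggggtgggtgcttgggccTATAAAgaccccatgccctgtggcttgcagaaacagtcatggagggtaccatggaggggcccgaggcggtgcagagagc

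Myh7, the slow myosin heavy chain of the fetal heart programme, read 9.97, 8.997, 9.63 and 9.34 in C57Bl/6J and 11.06, 11.09, 10.80 and 11.47 in C57Bl/6N. Here N4 was the highest array rather than the lowest. The difference of Myh7 was 3.08-fold (1.62 ± 0.18, adjusted p = 0.000329), with sham means of 8.40 and 8.92. Nppa, the atrial natriuretic peptide, read 14.90, 14.69, 14.85 and 14.69 against 15.44, 15.34, 15.42 and 15.37. These groups did not overlap, yet the difference of 0.61 ± 0.23 missed the threshold (adjusted p = 0.108) in a fit whose spread is shared with the sham arrays. Sham means of Nppa were 13.61 and 13.92, and without the first C57Bl/6N sham array the adjusted p was 0.00451; in a fit of the 8 treated arrays alone it was 0.0136. Nppb, the ventricular natriuretic peptide, read 14.18, 14.03, 13.67 and 13.75 against 13.76, 13.72, 14.34 and 14.38, from sham means of 12.62 and 12.78. Acta1, the skeletal alpha-actin re-expressed in hypertrophy, read 14.25, 14.05, 13.82 and 14.36 against 13.62, 13.78, 13.91 and 14.18, from sham means of 12.87 and 12.70. Both overlapped, with differences of 0.14 ± 0.29 (adjusted p = 0.804) and -0.24 ± 0.19 (adjusted p = 0.434). In the whole list of cardiac stress and hypertrophy, 7 of 26 genes were higher and none lower, at a median of 0.15. The remaining large higher differences included the row AA467197 (2.26 ± 0.37, adjusted p = 0.00369). AA467197 exceeded background on all C57Bl/6N arrays and on 1 C57Bl/6J array, and with background inferred from all rows it differed by 0.49. Bcat1, the cytosolic branched-chain aminotransferase, was higher by 1.66 ± 0.25 (adjusted p = 0.0031), and Sprr1a, a cornified envelope protein also induced in stressed cardiomyocytes, by 1.63 ± 0.29 (adjusted p = 0.00675). The stress list had 4 higher genes without N1, N3 or J4.

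Timp1 stood beside Spp1 and Lox among the called genes, and its promoter is printed for comparison with that of Ankrd2 (GRCm38.p6, chrX:20869916-20870215, plus strand, the same window). Its capitals mark an M-CAT match, CATTCC read on the opposite strand, whose first base lies 247 bases before the start; 14.7% of the promoters hold it on either strand. Exact AP-1 letters (TGANTCA, in 7.81% of promoters) and cyclic AMP response element letters (TGACGTCA, in 1.79%) were searched for on either strand. Neither was found in the promoters of Ankrd2, Timp1 or Hspa1a. Near matches, such as TGAGTAA in the Timp1 window, were not searched for.
Timp1: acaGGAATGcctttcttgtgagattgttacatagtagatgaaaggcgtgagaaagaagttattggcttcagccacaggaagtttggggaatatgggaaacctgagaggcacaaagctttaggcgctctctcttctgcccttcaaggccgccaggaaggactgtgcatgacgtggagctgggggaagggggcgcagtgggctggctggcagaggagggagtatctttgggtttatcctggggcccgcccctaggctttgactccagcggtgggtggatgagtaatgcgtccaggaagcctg

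Genes of oxidative metabolism that were called were lower in C57Bl/6N, by small amounts. In fatty acid uptake and oxidation, 6 of 29 tested genes were lower in C57Bl/6N, none was higher, and 28 differences were negative (median -0.33). Eci1, an isomerase of unsaturated fatty acid oxidation, differed by -0.40 ± 0.09 (adjusted p = 0.0173). Cpt1b, the carnitine transferase that admits long-chain fatty acids to muscle mitochondria, differed by -0.50 ± 0.12 (adjusted p = 0.0222). Etfdh, which passes electrons from fatty acid oxidation to ubiquinone, differed by -0.41 (adjusted p = 0.0276) and Acot2, a mitochondrial thioesterase, by -0.54 (adjusted p = 0.0337). Each of these 4 calls was lost without N1, at 0.0739, 0.0886, 0.104 and 0.113, and without N3, at 0.0678, 0.0847, 0.1 and 0.115; the list then had no call, against 10 without N4, 9 without J1 and 2, 1 and 3 without J3, J4 and N2. In the list of the TCA cycle and branched-chain catabolism, 5 of 28 were lower and none higher (median -0.28): Suclg2 (-0.44), Dlat (-0.50), Pdhb (-0.43), Bckdhb (-0.54) and Bckdha (-0.42), subunits of succinyl-CoA synthetase and of the pyruvate and branched-chain ketoacid dehydrogenases. None of these 5 was called without N1 or without N3, and the list had 3 lower genes without J1, J4 or N2. Without N4 the list had 9. Respiratory chain and ATP synthase subunits gave no call among 53 tested, though 52 of the 53 differences were negative (median -0.17, beside -0.015 over all tested genes). The median sham difference of these subunits was also negative, at -0.09, beside 0.006 over all tested genes. Ndufb10 had the smallest p among these subunits under angiotensin II, with a difference of -0.51 ± 0.16 (adjusted p = 0.0644). On N4 the medians of these lists, -0.02, 0.01 and 0.00, lay between the ranges of the other C57Bl/6N arrays and of the C57Bl/6J arrays. Ucp3, the muscle uncoupling protein, read 6.62, 7.68, 7.70 and 7.42 against 7.50, 6.50, 6.12 and 6.48, with sham means of 8.53 and 7.70. The Ucp3 groups overlapped (-0.71 ± 0.28, adjusted p = 0.127), and without J1 the difference was called (adjusted p = 0.0394).

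Sugar metabolism was mixed. Of 26 genes of glycolysis, glycogen and the pentose phosphate route, Eno1 (enolase 1), G6pdx (which opens the pentose phosphate route), Pygl (liver-type glycogen phosphorylase) and Pgd were higher by 0.65, 0.64, 0.56 and 0.56. Pfkfb2 (-0.69) and Pgam2 (-0.47), enzymes of muscle glycolysis, were lower. Eno1 rows may take signal from near-identical pseudogenes. Pgd, Pfkfb2 and Pgam2 lost their calls without N1 (0.0728, 0.0689 and 0.0702) and N3 (0.0682, 0.0608 and 0.0697). Antioxidant and glutathione enzymes were higher in 3 and lower in 5 of 34. Beside Hmox1, the peroxidases Gpx1 (0.43) and Gpx3 (0.57) were higher, and Sod2, the mitochondrial superoxide dismutase (-0.36), Txnrd2, the mitochondrial thioredoxin reductase (-0.51), Gsta3 (-0.54), Cat (-0.32) and Gstm1 (-0.38) were lower. Of these 8, Hmox1 alone was called without N1. Gpx3 also lost its call when any single sham array was left out, at up to 0.066.

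Ion channel genes were lower where they differed, in 5 of 27 with none higher (median -0.19). Scn4b, the beta 4 subunit of the cardiac sodium channel, read 8.33, 8.88, 8.57 and 8.90 in C57Bl/6J and 7.16, 7.23, 6.33 and 7.16 in C57Bl/6N. Its sham means, 9.52 and 8.58, were each above the treated arrays of the same substrain. Scn4b was 3.25-fold lower in treated C57Bl/6N (-1.70 ± 0.21, adjusted p = 0.000819), and the call held without each of the 14 arrays. Kcnd2, a pore subunit of the transient outward potassium current, differed by -0.71 ± 0.14 (adjusted p = 0.0101). With background inferred from all rows, the log2 differences of Scn4b and Kcnd2 shrank to -0.78 and -0.14 (adjusted p = 0.0214 and 0.0263). Abcc9, the sulphonylurea receptor of the ATP-sensitive potassium channel (-0.50), Kcnv2 (-0.96) and the pacemaker channel Hcn2 (-0.69) lost their calls without N1, at 0.0631, 0.0769 and 0.113, and without N3, at 0.066, 0.0867 and 0.111. Kcnip2, the accessory subunit that sets transient outward current, read 7.59, 8.68, 8.21 and 8.24 against 7.25, 7.74, 7.002 and 8.33, from sham means of 8.73 in both. The Kcnip2 groups overlapped (-0.60 ± 0.25, adjusted p = 0.144), and without N4 its difference was -0.85 (adjusted p = 0.0171). In calcium handling, Hrc, the histidine-rich calcium binder of the sarcoplasmic reticulum, was the 1 gene called among 20 (-0.63 ± 0.13, adjusted p = 0.0115).

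Contractile and atrial genes were compared together because several belong to both lists. Of 22 sarcomere and Z-disc genes, Myh7 was higher and Myl4 (atrial essential light chain, -1.04 ± 0.26, adjusted p = 0.0251) and Tnni3 (cardiac troponin I, -0.42 ± 0.11, adjusted p = 0.0331) were lower. Both lower calls were lost without N1 (0.0866 and 0.114), N2, N3 or J4. Of 10 tested atrial markers, Stard10 (-0.85 ± 0.14, adjusted p = 0.00369) and Myl4 were called lower, and the list median was -0.65. Myl7, the atrial regulatory light chain, read 11.65, 11.33, 11.44 and 11.37 against 10.09, 10.18, 10.20 and 10.19, without overlap, at -1.28 ± 0.39 (adjusted p = 0.0525). Sln, sarcolipin, the atrial inhibitor of the calcium pump, read 10.82, 11.16, 10.79 and 11.24 against 9.49, 9.47, 9.34 and 10.11 (-1.40 ± 0.50, adjusted p = 0.092). Without the first C57Bl/6N sham array, which shares its spread with them in the fit, Myl7 and Sln were called (adjusted p = 0.00332 and 0.00866). Dkk3 overlapped because of N4 (-0.75 ± 0.25, adjusted p = 0.077). Summed atrial marker signal, which Nppa dominates, was 39472 to 44675 in treated C57Bl/6J and 47470 to 50282 in treated C57Bl/6N, so it moved opposite to the list median. Bmp10 and Nr2f2 of the atrial list were below background on all treated arrays. The part of atrial tissue in these differences was not tested. Mybphl, a myosin-binding protein of atrial and conduction tissue, was lower by a similar amount (-1.54 ± 0.34, adjusted p = 0.0154, lost without N1 at 0.0608 and N3 at 0.0592). Cardiomyocyte markers gave 1 call among 16 (Tnni3), at a median of -0.08.

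Atf3, Egr1 and Hspa1a were lower in C57Bl/6N. Atf3, a stress-induced transcription factor, read 8.32, 7.41, 7.61 and 9.80 on J1 to J4 and 6.17, 6.18, 7.23 and 6.23 on N1 to N4. The highest values came from J4 and J1, and N3 stood above the other C57Bl/6N arrays. Atf3 was lower in C57Bl/6N by -1.83 ± 0.45 (adjusted p = 0.0227), lost without N1 (0.0803) and N2 (0.0581) and with background inferred from all rows (0.167). Egr1, a growth-induced zinc finger factor, read 11.81, 11.15, 12.22 and 11.67 against 10.52, 11.03, 11.02 and 10.17 (-1.02 ± 0.30, adjusted p = 0.0453). That call was lost without J1, J3, J4 or any treated C57Bl/6N array, at up to 0.133, and without 3 of the sham arrays. These were the 2 calls among 16 immediate early genes. Hspa1a, the inducible HSP70 chaperone, read 6.96, 9.30, 7.54 and 9.90 against 6.11, 6.23, 6.71 and 6.63. J2 and J4 were the highest, J1 and J3 lay nearer to C57Bl/6N, and the groups did not overlap, at -2.01 ± 0.54 (adjusted p = 0.0336). The Hspa1a call was lost without J2 (0.0808), J4 (0.0908), N1 (0.105), N2 or N3, and with background inferred from all rows (0.132). Hspa1b, a near-identical neighbour, may contribute to this row. Dnajb4 (-0.44) was the other call among 24 heat shock genes, lost without J1, J2, J4, N1, N2, N3 or 1 of the sham arrays, at up to 0.132. The Hspa1a promoter (GRCm38.p6, chr17:34972107-34972406, minus strand, the same window) is shown because heat shock factor sites are textbook features of this gene. Its capitals mark a match to GAANNTTC that begins 104 bases before the start, letters held by 7.86% of the promoters.
Hspa1a: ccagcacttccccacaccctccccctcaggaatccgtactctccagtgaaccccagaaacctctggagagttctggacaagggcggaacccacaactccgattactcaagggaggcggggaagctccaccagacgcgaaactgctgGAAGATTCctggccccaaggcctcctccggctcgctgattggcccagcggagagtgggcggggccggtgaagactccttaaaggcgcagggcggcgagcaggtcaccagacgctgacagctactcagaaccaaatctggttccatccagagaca

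Erdr1 was among the genes lower in C57Bl/6N and read 6.76, 8.16, 8.08 and 8.12 in C57Bl/6J and 5.11, 4.81, 4.61 and 5.70 in C57Bl/6N. J1 was the lowest C57Bl/6J array, and 1 C57Bl/6N array was above background. Erdr1 was lower in C57Bl/6N, at -2.72 ± 0.36 (adjusted p = 0.00153), with sham means of 7.67 and 7.20. With 3 of 4 C57Bl/6N arrays at background this size rests on the correction, and it was -0.53 with background inferred from all rows (adjusted p = 0.0449). The row 1110017D15Rik, for which no role is given here, was above background on all C57Bl/6J arrays and on no C57Bl/6N array, at least 2.97-fold lower (adjusted p = 0.00158). That bound holds for the correction used: with background inferred from all rows its log2 difference was -0.26 (adjusted p = 0.0238). Hamp, the iron hormone hepcidin, read 8.04, 8.16, 7.06 and 7.66 against 6.39, 6.21, 5.71 and 5.13, a difference of -1.87 ± 0.36 (adjusted p = 0.0086). Cfd, the complement protease adipsin of fat cells, differed by -1.51 ± 0.29 (adjusted p = 0.00909). The row CES3, a carboxylesterase under an old symbol whose relatives may share its signal, differed by -1.35 ± 0.20 (adjusted p = 0.0027). Smaller differences were those of Ptgds, the lipocalin-type prostaglandin D synthase (-1.13 ± 0.19, adjusted p = 0.00443), Lrtm1 (-1.10 ± 0.15, adjusted p = 0.00153) and the aquaporin Aqp8 (-1.10 ± 0.28, adjusted p = 0.0261, lost without J2, J4, N1, N2 or N3, at up to 0.0855). Adipocyte markers had Cfd and Pparg (-0.30, lost without 6 treated arrays, at up to 0.14) lower among 6 tested. Lep, Retn, Plin1, Cidec and Ucp1 were below background on all treated arrays, and Adipoq was above it on 1 of the 8. Summed adipocyte signal, which Lpl dominates (log2 signal 15.08 to 15.26), was 39588 to 42003 in C57Bl/6J and 36592 to 39920 in C57Bl/6N.

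Calls among signalling genes near the treatment itself came from small lists, of 7 to 23 tested genes. Agtr1a, the type 1 receptor for angiotensin II, read 9.50, 10.04, 9.81 and 9.63 against 9.80, 10.002, 9.60 and 9.94, from sham means of 9.97 and 10.12. Its difference was 0.09 ± 0.14 (adjusted p = 0.723). Agtrap, a protein that binds and restrains this receptor, was the 1 call among 7 tested genes of the renin-angiotensin system (-0.51 ± 0.14, adjusted p = 0.0398), lost without J1 (0.0722), J4, N1 (0.145), N2, N3 (0.112) and a pair of sham arrays. In TGF-beta signalling, 2 of 23 genes were called (8.70%), a share near the 9.25% of all tested genes. Tgfbi, a secreted matrix protein induced by the pathway, was higher (0.98 ± 0.23, adjusted p = 0.0173, lost without N1 at 0.0702 and N3 at 0.0706), and Id1, a target of the BMP branch, lower (-0.65 ± 0.13, adjusted p = 0.0107). Socs3, the feedback inhibitor of interleukin-6 type cytokines, read 9.81, 8.14, 8.08 and 9.16 against 8.92, 8.56, 8.53 and 8.19, from sham means of 6.95 and 7.92 (-0.25 ± 0.31, adjusted p = 0.652). Glucocorticoid response genes and metallothioneins had Ddit4 (0.63) and Lcn2 higher and Pdk4 (-0.56) lower among 13, each lost without N1, at 0.0992, 0.133 and 0.0893. The muscle ubiquitin ligases Trim54 (-0.61) and Trim63 (-0.47) were the 2 lower genes of 11 in muscle atrophy, lost without N1 at 0.086 and 0.116. Trim63 lost its call for 8 of the 14 arrays dropped singly. The clock output factor Tef (-0.67) was the 1 of 12 clock genes, lost without N1 at 0.11. Shares called lower were 14.3% in the renin-angiotensin, 18.2% in the muscle atrophy and 7.69% in the glucocorticoid list, beside 3.78% of all tested genes. The glucocorticoid list had 15.4% called higher, beside 5.46%.

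Markers of other cell types gave mixed calls. Among 14 fibroblast markers, Col1a1, Col3a1 and Tcf21 (0.41) were higher (21.4%, beside 5.46% of all tested genes). Gsn (-0.65) and Pi16 (-0.71) were lower (14.3%, beside 3.78%), and the list median was -0.10. Neither Tcf21, Gsn nor Pi16 kept its call without N1 (0.101, 0.0937 and 0.129). Of 19 endothelial markers, Plvap (0.43) was higher and Sox18 (-0.66) lower, also lost without N1 (0.0964 and 0.0649). In smooth muscle and pericytes 1 of 14 was called (Abcc9), in erythroid cells and platelets 1 of 10 (Gp9, -0.81, lost without N1 at 0.0649), among epicardial markers 1 of 3 (Aldh1a2, 0.94, lost without N1 at 0.0503) and among Schwann and neuronal markers 2 of 5 (Ncam1, 0.63, and Uchl1, 0.69, the latter lost without N1 at 0.0545). The 7 skeletal muscle, 3 mast cell and 1 lymphocyte markers tested gave no call. Cd3e and 10 other lymphocyte rows, and Myh4 and 5 other skeletal muscle rows, were below background on all treated arrays.

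Without angiotensin II the same substrain comparison gave 2 calls of 9408 (0.0213%), against 717 at an unadjusted p under 0.05, on 3 arrays a group. Both were also called under angiotensin II, in the same direction. Rab4a, a GTPase of endosome recycling, read 5.88, 6.70, 6.59 and 6.60 on J1 to J4 and 8.16, 8.29, 8.01 and 8.44 on N1 to N4. Its treated difference was 1.78 ± 0.15 (adjusted p = 3.21e-05) and its sham difference 1.74 (adjusted p = 0.000562). Entpd4, a nucleotide-hydrolysing enzyme of the Golgi, read 12.14, 12.09, 12.20 and 12.38 against 11.10, 11.33, 11.25 and 11.36, a treated difference of -0.94 ± 0.09 (adjusted p = 9.63e-05) and a sham difference of -0.74 (adjusted p = 0.0306). Entpd4 belongs to 6 genes for which sequence differences between the substrains are known, of which 3 were tested. Wdfy1, an endosomal adaptor of that list, was below background on all treated C57Bl/6J arrays and above it on all treated C57Bl/6N arrays, at least 1.56-fold higher (adjusted p = 9.29e-05); with background inferred from all rows its log2 difference was 0.10 (adjusted p = 0.00591). Cyfip2, a subunit of the actin-regulating WAVE complex, read 7.80, 6.98, 6.68 and 6.84 against 6.15, 6.52, 6.59 and 6.38 (-0.67 ± 0.20, adjusted p = 0.0517).

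Across the 9408 genes, treated and sham differences, which come from separate arrays, correlated at r = 0.012 and rho = -0.056; genes are not independent replicates. Of the 514 genes higher under angiotensin II, 266 (51.8%) had a sham difference above 0, beside 51.5% of all tested genes. Of the 356 genes lower under angiotensin II, 220 (61.8%) had a sham difference below 0. Median sham differences were 0.009 for the higher genes, -0.055 for the lower ones and 0.006 over all tested genes. The difference between the treated and the sham difference was itself tested, and 1 gene passed (0.0106%), Ankrd2 (adjusted p = 0.00417). No size is given for it because 3 of its 4 groups were at background. At an unadjusted p under 0.05, 1644 genes passed that test. Its count was decided by single arrays and settings: 414 genes without N4, 2 without J2 or without the third C57Bl/6J sham array, 522 without J1 and N4, 568 with limma's array weights, and 0 with background inferred from all rows, with no background correction or in the authors' deposited value table. Among the named genes, the next smallest adjusted p-values in that test were those of Fcgr4 (0.0613), Spp1 (0.0682), Trem2 (0.0682) and Ms4a7 (0.0749).

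**Figure D5:**
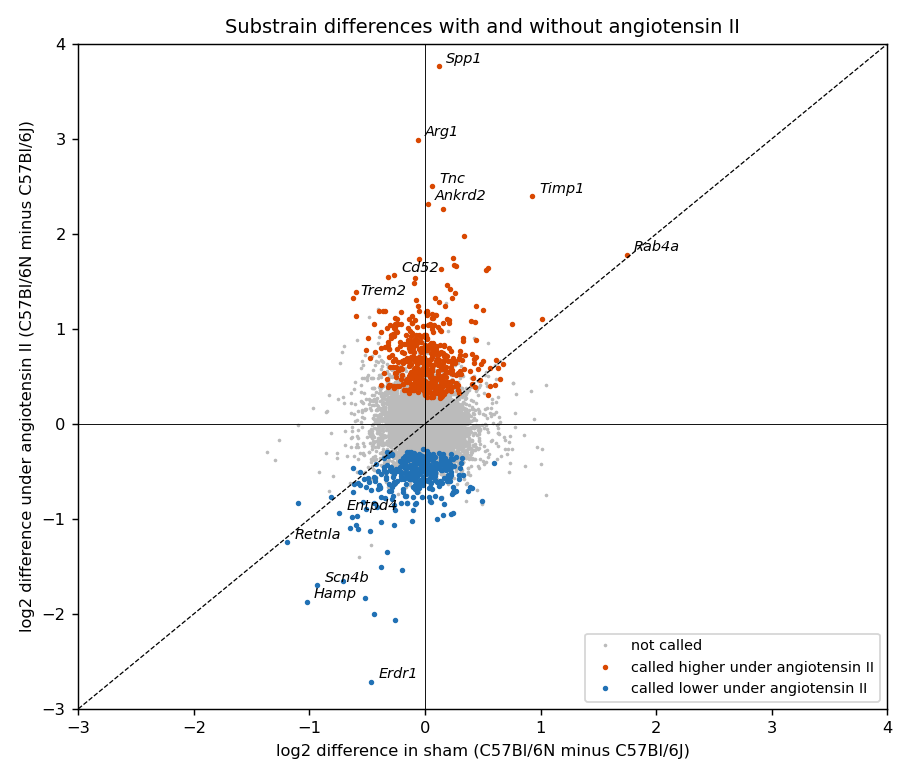
Substrain difference in sham ventricles (horizontal axis) against the same difference under angiotensin II (vertical axis), both as log2 signal in C57Bl/6N minus C57Bl/6J, 1 point a gene. Called genes (orange higher, blue lower under angiotensin II) mostly lie near 0 on the horizontal axis, such as Spp1 and Arg1, while Rab4a, Entpd4 and Retnla lie near the dashed line of equal differences.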

How the data were processed

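Each array's deposited values are a linear signal intensity and a detection p-value per gene row, per the file headers; the authors had not normalised this table, and the sources used here name neither the array model nor the software. Per the labels' protocols, left ventricular RNA was extracted with a column kit with DNase treatment and amplified to biotin-labelled cRNA. The authors' deposited value table, which holds 18132 of the 18138 rows as quantile-normalised intensity, served as an alternative.

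Background was corrected with the normexp model. Its negative-control mean and SD (60.8 to 74.2 and 11.6 to 18.6 over the arrays) were inferred from the detection p-values. Only the 14215 rows whose detection p-values lie on a grid of 798 steps were used for this, and the other 3923 rows were left out. The alternative called background inferred from all rows used every row instead. An offset of 16, quantile normalisation and log2 followed. Rows with a detection p under 0.05 on at least 3 arrays were kept. A model of 4 group means over all 14 arrays was fitted with limma 3.58.1 in R 4.3.3 (lmFit, eBayes), with Benjamini-Hochberg adjustment over 9408 rows, and was tested on simulated data. Adjusted p-values in the text are limma's unless stated otherwise. A row was above background where its signal reached the lowest detected one on that array; "at least" folds are measured against that floor.

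Names were updated through RefSeq (GRCm38.p6, names only): 14309 rows were current, 2662 older and 1167 unmatched. Members and lists (30 by function, 14 by cell type) were chosen with earlier results of these data known. Named genes were the 15 largest called differences in each direction, genes called for the difference of differences, a fixed list, the up to 4 smallest p-values of each gene list and detected genes of known sequence difference. Some genes that this rule gives are not reported here. A further 13 (Bckdha, Cat, Ccl9, Cxcl9, Eef1g, Folr2, Gpx1, Gpx3, Gstm1, Hcn2, Lyve1, Pgam2, Pgd), and markers named as below background, were chosen after their values were seen. Alternatives changed the background correction, scaling, offset, filter, arrays fitted, array weights and variance prior, and dropped arrays singly. Precision is limited by the small number of arrays.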

Additional observations from a re-analysis of the deposited data

Results flagged for a closer look

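In 21 of 380 groups of 4 arrays examined, a single array lay farther from the other 3 than Dixon's 95% critical value allows; chance gives about 1 in 20. J1 held 10 of the 21. It read low for Rab4a (5.88, others 6.59 to 6.70), Erdr1 (6.76, others 8.08 to 8.16), Tubb2b (7.90, others 8.17 to 8.21), Rps4x (13.2, others 13.4), Aldh1a2 (6.02, others 6.53 to 6.63) and Gpx3 (10.8, others 11.6 to 11.8). It read high for Saa3 (6.07, others 5.52 to 5.60), Agtrap (9.45, others 8.83 to 8.89) and Pi16 (10.8, others 10.01 to 10.11). J1 was also low in the list median of the actin and tubulin cytoskeleton (-0.31, others -0.23 to -0.22).

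N3 read high for Atf3 (7.23, others 6.17 to 6.23) and in the heat shock list median (0.073, others -0.10), and low for Scn4b (6.33, others 7.16 to 7.23) and Kcnd2 (6.09, others 6.61 to 6.72). N4 read low for Eef1a1 (13.8, others 14.1 to 14.2) and high in the list medians of endothelial markers (0.22, others -0.15 to -0.11) and of erythroid and platelet markers (0.17, others -0.29 to -0.26). N1 read low for Myl7 (10.1, others 10.2), N2 low in the neutrophil list median (-0.79, others 0.36 to 0.57), J4 low for Col3a1 (7.35, others 7.90 to 7.94) and J3 low for Dnajb4 (6.38, others 6.83 to 6.92).

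Ankrd2 was the gene whose substrain difference under angiotensin II differed from that in sham ventricles by limma's test of that difference (adjusted p = 0.00417).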

How the results depend on the processing

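The count of genes called between the treated substrains was 870 (514 higher and 356 lower in C57Bl/6N). Leaving out single arrays gave 206 to 1476 calls, 139 to 835 higher and 67 to 641 lower, and 1 to 414 genes for the difference of differences. A fit of the 8 treated arrays alone gave 249 (157 higher, 92 lower). Fewer residual degrees of freedom are part of that alternative. It lost 66 of the 129 named calls, more than any other setting that did not drop a single array. Among these were Clec4d (adjusted p = 0.0559), Chil3 (0.0595), Tyms (0.0542), Mcm4 (0.0521), Ms4a6d (0.0572) and Hrc (0.0582), which held without each single array. Array weights gave 2241 (1179 higher, 1062 lower; 568 for the difference of differences), and leaving out J1 and N4 together, chosen after seeing the data, 1672 (909, 763 and 522). Lower calls numbered 219 with background inferred from all rows, 168 with median scaling and 227 with no filter on detection. The difference of differences had 0 calls with background inferred from all rows, with no background correction and in the authors' deposited table; the cause was not tested. None of the named calls changed sign; of the named genes that were not called, Ccl2 (-0.34 to 0.69), Socs3 (-0.48 to 0.21) and Agtr1a (-0.03 to 0.19) did in at least 1 alternative. Of 129 named calls, 50 held under every alternative run, 69 were lost without at least 1 array and 74 in at least 1 other setting; 10 of 17 named genes that were not called passed somewhere. Over all lists and alternatives, 169 counts of higher calls and 311 of lower calls moved by over 1.5 times, against 974 and 832 that did not, and 57 of the list medians moved beyond the replicate spread against 1086 that did not. No paired analysis was possible because the labels carry no replicate numbers and name no shared litter, batch or day. Of the 514 higher genes, 56 were below background on all 4 treated C57Bl/6J arrays. Where the sham arrays were below background too, such genes could enter the test through the treated C57Bl/6N arrays alone. With background inferred from all rows, calls of Arg1, Clec4d, Hmox1, Chil3, Hspa1a, Atf3, Retnla, Aqp8, Col1a1, Top2a, Adam8, Acot2, Gsta3, Myl4, Rps12, Egr1, Agtrap, Trim63, Gsn, Pi16, Kcnv2, Dnajb4, Ddit4, Lcn2, Pdk4, Tef, Gp9, Eif4e, Npm1, Lyve1, Bckdha, Hcn2, Gpx3, Ccl9 and Cxcl9 were lost; with median scaling, those of Ccl19, Acot2, Bckdhb, Abcc9, Txnrd2, Rps4x, Rps12, Rsad2, Irf1, Agtrap, Trim63, Sox18, Pi16, Dnajb4, Gp9, Psma5, Eif4e, Npm1, Eef1g, Lyve1, Pparg, Hcn2, Gpx1, Cat, Gstm1 and Cxcl9. Without the filter on detection 35 named calls were lost.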
